A study of Rattus norvegicus and Ovis aries with 113 samples.

Results

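The HOX cluster genes were followed across sheep brain regions, sheep sperm, rat brain, rat ovary and rat sperm. Members were all genes whose symbol is HOXA, HOXB, HOXC or HOXD followed by digits alone. This gave 38 of the 31304 genes in the sheep count table and 39 of the 38675 in the rat table, 77 of 69979 in all. The same 38 symbols were present in both tables, and Hoxc4 was present in the rat table alone. The 13 paralog groups were read in 3 classes: anterior (groups 1 to 3), central (groups 4 to 8) and posterior (groups 9 to 13). Sheep had 8 anterior, 14 central and 16 posterior members, and rat had 8, 15 and 16.

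HOX genes encode homeodomain transcription factors that specify position along the head-to-tail axis, and mammals carry them in clusters named A, B, C and D on separate chromosomes. Within a cluster the order of the genes matches the order of their anterior limits in the embryo, so that anterior paralogs reach into the hindbrain, the origin of pons and cerebellum, while posterior paralogs pattern the trunk, limbs and the genital tract. The forebrain forms ahead of the HOX domain. HOX proteins bind DNA with TALE cofactors of the PBX, MEIS and PKNOX families, retinoic acid induces anterior members, and Polycomb and Trithorax proteins keep the silent or active state.

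RNA from poly(A)-selected libraries was sequenced from post-pubertal, untreated animals, and the series title names genes that bridge neurological and reproductive functions. From each of 5 rams (animals 687, 688, 690, 694 and 699), 10 dissected brain regions from the same hemisphere and RNA from seminal fluid, labelled sperm, were sampled, giving 55 libraries. The regions were pons, cerebellum and 8 forebrain regions: basal ganglia, hippocampus, and entorhinal, frontal, prefrontal, motor, posterior parietal and visual cortex. From Sprague Dawley rats, whole brain and sperm came from 15 males (rats 3 to 17), and whole brain and ovary came from 14 females (rats 1, 2 and 18 to 29), giving 58 libraries. Each library was therefore 1 animal's tissue, and libraries with the same number shared an animal. These were bulk samples, in which fewer cells of a type and less RNA per cell cannot be told apart.

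Library totals, in units of 1000000 counts, ran from 46.7 to 72.4 in sheep brain, 13.7 to 65.1 in sheep sperm, 38.2 to 119 in rat brain, 50.5 to 60.3 in ovary and 13.7 to 65.1 in rat sperm. Levels below are counts per 1000000 (CPM) of a library total scaled by TMM factors, and they compare a gene across libraries, since gene lengths were not used. Several libraries stood apart from their labels or groups. The sheep sperm libraries held stratified squamous epithelium genes at a summed 8630 to 166000 CPM and neutrophil genes at 13800 to 159000 CPM, beside 217 to 7270 CPM of late spermatid and sperm genes. Rat sperm held epididymis genes at 1620 to 12000 CPM, vas deferens genes at 2150 to 23100 CPM and late spermatid and sperm genes at 326 to 28700 CPM. Ribosomal RNA entries took most of the counts in the brains of female rat 1 and male rat 4, and the sperm libraries of rats 16 and 17 were shallow, the latter at 13.7 in those units. Among the sheep pons libraries, those of animals 694 and 699 held few HOX counts, as given below.

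In the sheep brain, HOX RNA was concentrated in pons and stopped at the central members. A gene was taken as detected when it reached 0.1 CPM of the plain library total in at least 80% of a group's libraries. By that measure 9 of 38 members were detected in pons, 7 anterior and 2 central, among them HOXA2, HOXA3, HOXA4, HOXB2, HOXB3, HOXB4, HOXD1 and HOXD3. Cerebellum had 3 and each forebrain region 2 to 4, beside 61.0% to 63.1% of all genes in the 10 regions. The posterior class was all but empty in pons, where 14 of its 16 members had no count in any of the 5 libraries. The exceptions were HOXD13, with 6 counts in sheep 694, and HOXC9, with 1 count in sheep 690. A sum of 3 counts over the 5 pons libraries, the limit that a count of 0 allows, corresponds to 0.00917 CPM.

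The 5 pons libraries differed widely from each other. Members with at least 10 counts numbered 12 in sheep 687, 13 in sheep 688, 17 in sheep 690, 4 in sheep 694 and 6 in sheep 699. The 8 anterior members summed to 22.6, 18.3, 43.4, 4.99 and 11.4 CPM in that order of animals, and the central members to 16.1, 7.83, 76.6, 0.229 and 0.358 CPM. Sheep 690 was the highest and sheep 694 the lowest in both sums, while the posterior sum was at most 0.081 CPM in any of them. In the other 9 regions, mean anterior sums ran from 0.770 to 1.57 CPM and mean central sums from 0.116 to 0.283 CPM.

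**Figure D1:**
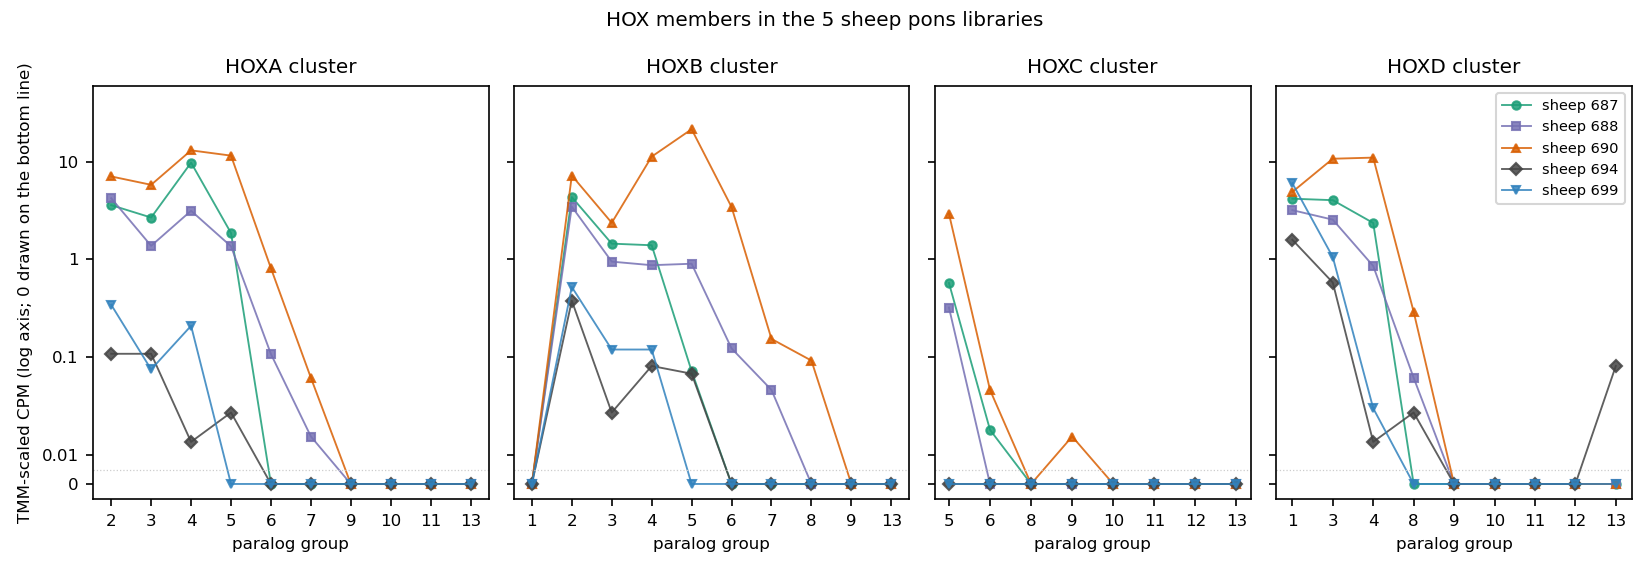
HOX levels in the 5 sheep pons libraries, in CPM on a log axis, by paralog group and with a panel for each of clusters A to D; each line is an animal, and values of 0 are drawn on the bottom line. Sheep 690 runs highest over groups 4 to 6, sheep 694 and 699 run lowest over groups 2 to 4, and almost no value lies above 0 from group 9 onward.

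HOXD1, the group 1 gene of cluster D, was present in every pons library. Its level was 4.2, 3.2, 4.92, 1.59 and 6.05 CPM in sheep 687, 688, 690, 694 and 699. It was not confined to pons, because all 45 other brain libraries had counts, with a median of 0.440 and a maximum of 2.51 CPM, so the groups overlapped. The mean was 3.99 ± 1.70 CPM in pons (SD, n = 5) against 0.530 ± 0.484 CPM (n = 45). The fitted log2 fold change over the mean of the other 9 regions was 3.05 ± 0.37 (SE; adjusted p = 4.35e-09, edgeR's quasi-likelihood test with Benjamini-Hochberg adjustment over all genes tested, as for every adjusted p below). HOXB1, the group 1 gene of cluster B, had no count in any pons library.

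Members of group 2, whose products pattern hindbrain segments and neural crest, split the pons libraries by animal. HOXA2 was at 3.61, 4.25, 7.10, 0.108 and 0.343 CPM in the same order of sheep. The first 3 libraries were high and the last 2 were more than 10 times lower, yet all 5 lay above every other brain library. Across those 45 libraries HOXA2 had 11 counts, all of them in cerebellum. HOXB2 was at 4.36, 3.48, 7.25, 0.378 and 0.523 CPM, and here sheep 694 and 699 fell inside the range of the other regions, 0.0389 to 0.907 CPM. Its log2 fold change was 3.12 ± 0.28 (adjusted p = 1.52e-12).

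Values of group 3 and central members also differed between the animals. HOXD3 had 4.05, 2.56, 10.8, 0.580 and 1.06 CPM in pons, a log2 fold change of 4.89 ± 0.34 (adjusted p = 2.74e-15), which was 3.97 without sheep 690. HOXB4, a central gene, had 1.4, 0.874, 11.3, 0.0810 and 0.119 CPM, and its log2 fold change of 3.99 ± 0.34 (adjusted p = 8.69e-13) was 1.91 without sheep 690. For HOXB4, sheep 694 lay below the forebrain range of 0.0914 to 0.377 CPM and sheep 699 lay within it. The fit used a single spread per gene for all 50 brain libraries. The SE and adjusted p of these members, HOXB2 and HOXD1 included, therefore do not measure the spread among the pons animals. HOXA4 had 9.83, 3.16, 13.1, 0.0135 and 0.209 CPM. HOXA5 had 1.87, 1.36, 11.6, 0.0270 and 0 CPM, and HOXD4 had 2.37, 0.858, 11.1, 0.0135 and 0.0299 CPM. Further along the clusters only sheep 690 had more than 1 CPM: HOXB5 reached 21.6 CPM there against at most 0.904 CPM in the others, and HOXB6 reached 3.45 CPM against at most 0.123 CPM. HOXC5 was the cluster C gene with the most pons counts, at 0.574, 0.322, 2.94, 0 and 0 CPM.

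In all, 5 of the 38 members had enough counts to be tested between pons and the mean of the other 9 regions, and all 5 were called higher (adjusted p below 0.05 and a log2 fold change of at least 1), against 9.2% of all genes tested. Their median log2 fold change was 3.99, beside -0.0026 over all genes. A gene could pass the low-count filter through pons alone, so these counts describe the tested members and are not evidence about the cluster as a whole. Without the filter 20 members were called higher, against 9.73% of all genes, among them HOXA2 to HOXA6, HOXB2 to HOXB8, HOXC5, HOXC6, HOXD1, HOXD3, HOXD4, HOXD8 and HOXD13, the last of which rested on 6 counts. DESeq2 called 11 higher, against 8.89% of all genes.

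Markers of position and of cell type also varied among the pons libraries. The summed level of 9 genes of brainstem serotonin, noradrenaline and glycine neurons was 28.7, 144, 243, 43.6 and 22.4 CPM in sheep 687, 688, 690, 694 and 699, with all 9 genes present. EN1 and EN2, which mark the midbrain-hindbrain junction, were highest in sheep 694, at 15.9 and 20.6 CPM, and next in sheep 699, at 5.33 and 2.93 CPM. Both stayed under 1 CPM in the other 3 animals. OTX2, a gene of midbrain and choroid plexus, was at 11.9 CPM in sheep 694 and at most 0.996 CPM elsewhere in pons. Choroid plexus genes summed to 906 CPM in sheep 694 and 236 CPM in sheep 690, against 11.4 to 35.5 CPM in the remaining 3. The part of these differences in the HOX values was not tested. Of the 7 brainstem genes tested, 7 were higher in pons, all 7 forebrain genes tested were lower, and 5 of 5 oligodendrocyte genes were higher. Of all genes tested, 9.2% were higher in pons, and these made up 49.5% of all calls, the rest being lower.

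**Figure D2:**
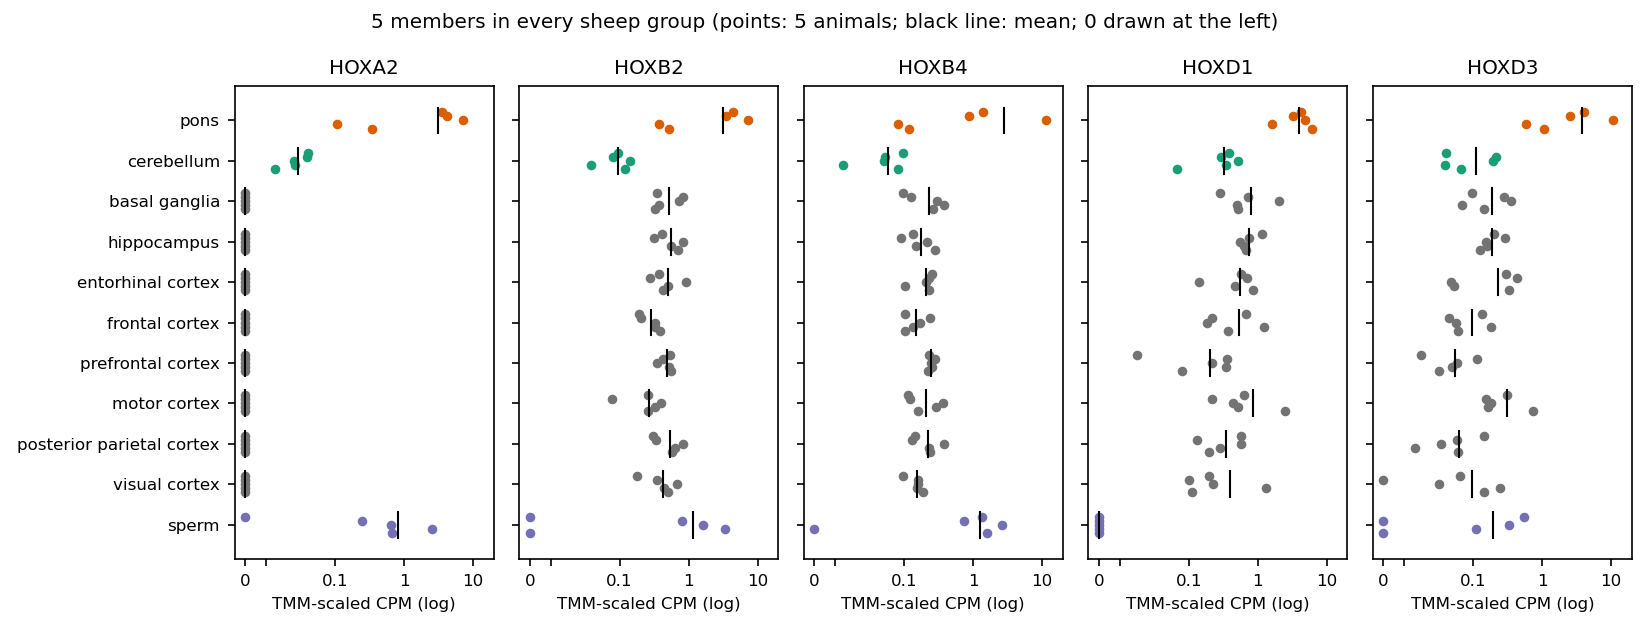
HOXA2, HOXB2, HOXB4, HOXD1 and HOXD3 in the 10 sheep brain regions and in sperm, in CPM on a log axis; points are the 5 animals and the black line is their mean. HOXA2 is at 0 in every forebrain library, whereas HOXB2, HOXB4 and HOXD1 have a low level in all of them.

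Cerebellum was set against the mean of the 8 forebrain regions. HOXA2 had counts in all 5 cerebellum libraries, at 0.0135 to 0.0408 CPM, and in none of the 40 forebrain libraries, which makes it at least 25.69-fold higher, on 11 counts in total.

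HOXB2 and HOXB4 were lower in cerebellum than in forebrain. HOXB2 was at 0.0952, 0.0792, 0.141, 0.0389 and 0.121 CPM in cerebellum, in the order of animals used above, against 0.448 ± 0.200 CPM in forebrain (n = 40), a log2 fold change of -2.17 ± 0.46 (adjusted p = 8.59e-05). For HOXB4 the log2 fold change was -1.72 ± 0.61 (adjusted p = 0.014). HOXD1 at -0.65 (adjusted p = 0.291) and HOXD3 at -0.22 (adjusted p = 0.749) were not called. Of the 5 members tested 3 were called, among them these 2 lower ones, where 18.9% of all genes tested were lower. Among all calls in this comparison 34.2% were higher, and 46.3% were with plain library totals. Without the low-count filter 5 members were called and 2 of them were lower, against 14.9% of all genes.

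The forebrain signal was low but regular. HOXB2, HOXB4 and HOXD1 had counts in all 40 forebrain libraries, with medians of 0.396, 0.198 and 0.484 CPM, and HOXD3 in 39 of 40. By region mean, HOXB2 ran from 0.265 CPM in motor cortex to 0.565 CPM in hippocampus, HOXB4 from 0.15 CPM in frontal to 0.248 CPM in prefrontal cortex, and HOXD1 from 0.203 CPM in prefrontal to 0.860 CPM in motor cortex. Pons was set directly against cerebellum as well, a comparison that shares its libraries with the ones above. All 5 tested members were higher in pons, against 20.1% of all genes. The log2 fold change was 5.52 for HOXB4, 5.08 for HOXD3, 5.04 for HOXB2 and 3.62 for HOXD1, with adjusted p of at most 2.94e-05. Without the filter 17 members were higher in pons, against 16.2% of all genes, and DESeq2 called 9 higher, against 19.3%. Without sheep 690, the HOXB4 value was 3.31 and that of HOXD3 was 4.49. The 5 pons values lay above the 5 cerebellum values for HOXB2, HOXD1 and HOXD3.

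The genes that work with HOX proteins or set their domains were counted from lists chosen with earlier results of these data known. Among all genes tested, 9.2% were higher in pons than in the other regions, and 18.9% were lower in cerebellum than in forebrain. Higher genes made up 49.5% of all calls in pons and 34.2% of all calls in cerebellum, the rest being lower. Of 11 TALE cofactors tested between pons and the other regions, 3 were higher and 1 lower: MEIS1 (log2 fold change 2.22), TGIF1 (1.35) and PBX3 (1.16) were higher, and PKNOX2 (-1.44) was lower. MEIS1 was also higher in cerebellum than in forebrain, by 3.68, while MEIS2 was lower there, at -3.89. Of 14 hindbrain patterning genes, 7 were tested in pons and 5 were higher, among them EN1 at 5.21 and GBX2, which sets the anterior hindbrain border, at 2.79. EN1 was not higher in pons than in every region, with a mean of 4.45 CPM in pons and 8.44 CPM in cerebellum. Its pons mean rested on sheep 694 and 699, at 15.9 and 5.33 CPM. EN2, a midbrain and hindbrain gene, was called at 6.19 in a fit that averages the logs of the 9 regions, and the 8 forebrain regions had a mean of 0.141 CPM. Its mean was 5.13 CPM in pons and 13.5 CPM over the other regions, with 120 CPM in cerebellum, and directly against cerebellum it was lower, at -4.55. EGR2, a segmentation gene that neurons also switch on with activity, was lower at -2.74. The retinoic acid list had 2 of 15 higher and 2 lower in pons, and 0 higher and 9 lower in cerebellum. Of 22 Polycomb and Trithorax genes, 1 was called in pons, CBX6 at -1.07. Among ParaHox and other clustered homeobox genes, 3 of 6 tested were lower in pons, the forebrain interneuron genes DLX1, DLX2 and DLX5, and DLX1 stood at -9.28.

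Sheep sperm libraries held a scattered HOX signal without the pons pattern. Counts over all members were 267, 232, 78, 314 and 180 in sheep 687, 688, 690, 694 and 699. All 3 classes were represented: anterior members summed to 7.08 ± 7.22 CPM (n = 5), central members to 12.6 ± 3.53 CPM and posterior members to 7.43 ± 4.99 CPM. Few genes were shared by the animals, since 2 members had counts in all 5 libraries and 4 had none in any. The shared members were central. HOXA7 was at 0.671, 1.13, 2.96, 0.555 and 3.03 CPM, and HOXC8 was at 1.21, 0.485, 0.658, 1.22 and 0.674 CPM. Both lay above every brain library, although neither passed the filter for a test. A sum of 3 counts over the 5 sperm libraries corresponds to 0.0736 CPM, a coarser limit than in pons.

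Between sheep sperm and the mean of the 10 brain regions, 9 members were tested, 7 were higher and 1 lower, where 33.1% of all genes tested were higher and 41.1% lower. The median was 4.05 over the tested members and -0.42 over all genes. As in pons, a gene could pass the filter through sperm alone, so these counts describe the tested members only. HOXA2, HOXA5, HOXB3 and HOXC5, all called higher here, had too few counts to be tested in the fit of brain regions alone. HOXB3, an anterior gene of cluster B, had 14.1, 0.324, 0, 3.55 and 1.57 CPM, a log2 fold change of 6.46 ± 0.43, or 5.01 without sheep 687. HOXA5, a central gene, was more even, at 2.01, 1.13, 1.65, 1.55 and 0 CPM, with a log2 fold change of 5.78 ± 0.72. HOXD1, present in every brain library, had no count in sperm and was at least 11.9-fold lower (adjusted p = 0.000212).

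Other calls in sheep sperm were HOXC5 at 8.04, HOXA2, HOXB4 at 2.34 and HOXB2 at 1.31, and HOXD3, at -0.16 (adjusted p = 0.873), was not called. Without the low-count filter 33 members were higher, against 37.7% of all genes, and DESeq2 called 12 higher, against 36.8%. The call of HOXA2 is against the mean of the log levels of regions, most of which had no count, and its mean was 0.826 CPM in sperm and 3.08 CPM in pons. HOXC5, likewise without counts in most regions, had a mean of 1.19 CPM in sperm and 0.768 CPM in pons. The log2 fold change of HOXC5 was 6.31 without sheep 694, and that of HOXB2 was 0.15 without that animal and then not called. Scaling bore on these values because the TMM factors of sperm were 0.114 to 0.305. With plain library totals the median over all genes was -2.84, the share of higher calls 17.7% in place of 44.6%, and HOXB4 and HOXB2 turned to -0.24 and -0.85. The squamous epithelium and neutrophil genes given above were near 0 in sheep brain, at most 3.98 and 1.20 CPM summed in pons, cerebellum, basal ganglia and motor cortex. Their part in the sperm HOX values was not tested.

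In whole rat brain, anterior and central members were detected, while posterior members stayed below the detection limit, with 66 counts in males and 47 in females. Of 39 members, 9 were detected in males and 10 in females, none of them posterior, beside 54.1% and 51.6% of all genes. The 10 were Hoxa2, Hoxa3, Hoxa4, Hoxa5, Hoxb2, Hoxb3, Hoxb5, Hoxd1, Hoxd3 and Hoxd4, and Hoxa5 missed the limit in males. Hoxb5, a central gene active in the caudal hindbrain and spinal cord, ran from 0 to 4.17 CPM in males with a median of 0.940 CPM, and from 0.0184 to 6.26 CPM in females with a median of 1.30 CPM. Hoxa2 ran from 0 to 1.71 CPM in males (median 0.672) and from 0 to 2.46 CPM in females (median 0.908). Each sex thus held libraries with almost no HOX RNA. Male rats 3 and 7 and female rat 19 were near 0 for most members, while female rat 26 was the highest, with Hoxa5 at 4.88, Hoxb5 at 6.26 and Hoxb8 at 5.24 CPM. The posterior sum was at most 0.163 CPM in any of the 29 brains.

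**Figure D3:**
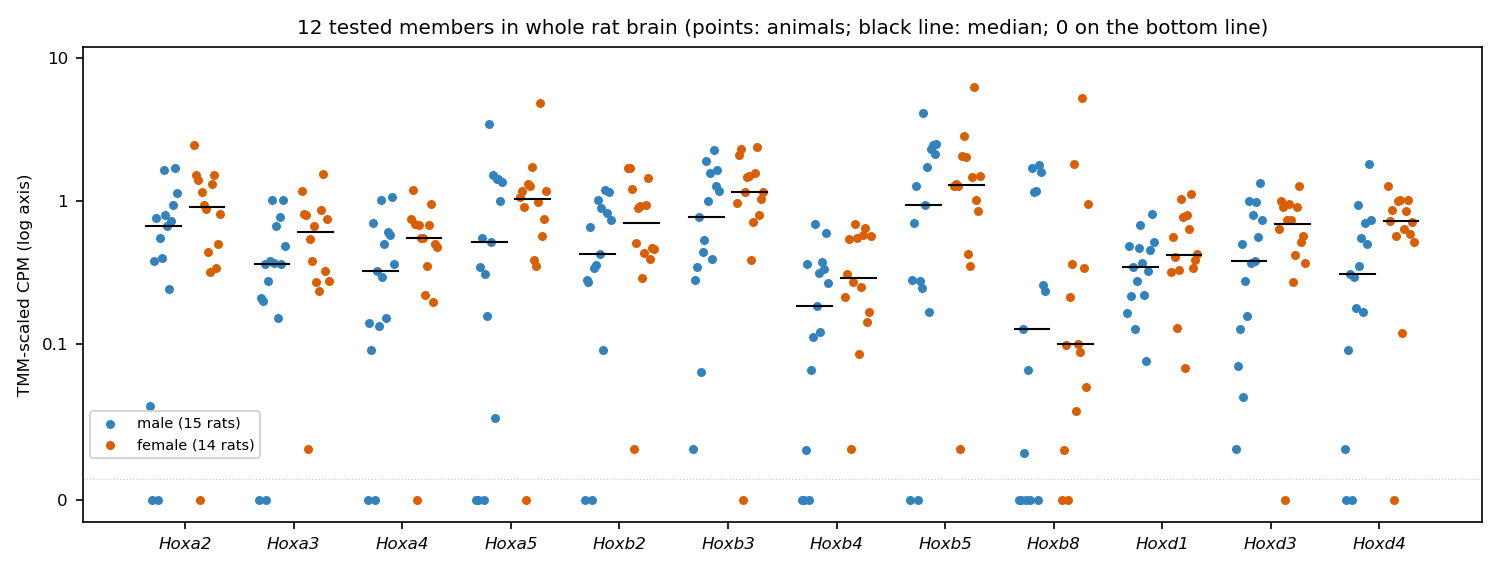
The 12 members tested in rat brain, in CPM, by sex; points are animals (15 males, 14 females) and the line is the median. Males and females overlap for every member, and each sex has animals close to 0.

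None of the 12 members tested between male and female brain was called, against 0.0535% of all genes tested. None had an unadjusted p below 0.05 in edgeR and none was called by DESeq2, which called 0.14% of all genes. The log2 fold changes, male minus female, ran from -0.28 to -0.60, with adjusted p from 0.65 to 0.948. The brainstem neuron list, the marker list set against members in rat brain, summed to 10.6 to 90.1 CPM in males and 23.3 to 74.9 CPM in females. Over 70 relations between members and marker lists, 5 of 12 members in males and 8 of 12 in females had a Spearman correlation with this list at a Benjamini-Hochberg adjusted p below 0.05 (permutation test, two-sided). The share of all genes with such a correlation is not given here. Since the members were measured in the same libraries, these counts are not separate results and say nothing particular to HOX genes. For Hoxd3 in males, Spearman's rho was 0.754 (n = 15, permutation p = 0.0016, adjusted p = 0.0227) and Pearson's r was 0.783 (permutation p = 0.00059), or 0.692 without the 2 libraries farthest from the list's median. For Hoxa2 in females, rho was 0.776 (n = 14, permutation p = 0.00188, adjusted p = 0.0227) and r was 0.794 (permutation p = 0.00073), or 0.751 without 2 libraries. Hoxb8 had the weakest relation in both sexes, with rho of 0.378 and 0.271.

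The rat ovary carried members of all 3 classes, 26 of 39 detected: 5 anterior, 14 central and 7 posterior. Of all genes, 49.9% were detected in ovary. The 14 ovaries were more alike than the brains. Hoxd8, a central gene of cluster D, was at 34.2 to 47.0 CPM with a median of 41.0 CPM. Hoxd9, the neighbouring posterior gene, was at 10.6 to 18.8 CPM with a median of 12.8 CPM. In female brain, Hoxd8 reached at most 0.1 CPM and Hoxd9 had 1 count in all, so neither gene's groups overlapped. The log2 fold changes were 10.50 ± 0.23 for Hoxd8 (adjusted p = 4.60e-27) and 11.94 ± 0.21 for Hoxd9 (adjusted p = 1.87e-29). From the single brain count, the 95% Poisson interval of the Hoxd9 ratio was 1831 to 402900, which covers counting error alone.

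These genes lie side by side on rat chromosome 3, and the promoters of Hoxd11, Hoxd10, Hoxd9 and Hoxd8 are shown because the direction of the ovary and sperm difference changes between Hoxd9 and Hoxd10. The sequences are RefSeq's for GRCr8, plus strand, 5′ to 3′, from 250 bases before to 50 bases after each annotated start. Capitals mark every match, on either strand, to the motifs TGATNNAT (a PBX-HOX site), CCAAT (known as the CAAT box), TATAAA (the TATA box of many core promoters) and GGGCGG (a GC box, bound by SP proteins). The windows are chr3:79992144-79992443 for Hoxd11, chr3:80001697-80001996 for Hoxd10, chr3:80007756-80008055 for Hoxd9 and chr3:80014973-80015272 for Hoxd8.
Hoxd11: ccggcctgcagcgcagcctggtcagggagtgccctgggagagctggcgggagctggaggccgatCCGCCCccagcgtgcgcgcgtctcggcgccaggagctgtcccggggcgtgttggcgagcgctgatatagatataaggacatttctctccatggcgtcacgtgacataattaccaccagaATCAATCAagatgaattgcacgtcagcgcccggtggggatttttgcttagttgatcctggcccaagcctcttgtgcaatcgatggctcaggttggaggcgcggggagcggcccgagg
Hoxd10: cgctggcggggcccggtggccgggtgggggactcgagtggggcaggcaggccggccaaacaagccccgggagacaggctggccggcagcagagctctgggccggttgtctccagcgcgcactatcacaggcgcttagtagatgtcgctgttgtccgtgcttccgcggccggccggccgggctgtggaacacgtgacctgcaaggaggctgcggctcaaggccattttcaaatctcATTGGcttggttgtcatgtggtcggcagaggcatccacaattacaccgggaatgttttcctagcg
Hoxd9: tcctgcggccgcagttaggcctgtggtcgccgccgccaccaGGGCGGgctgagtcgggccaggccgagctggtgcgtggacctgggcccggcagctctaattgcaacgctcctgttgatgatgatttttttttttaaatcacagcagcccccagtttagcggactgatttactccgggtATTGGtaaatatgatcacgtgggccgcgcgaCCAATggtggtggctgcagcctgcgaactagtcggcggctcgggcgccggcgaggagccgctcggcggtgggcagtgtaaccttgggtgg
Hoxd8: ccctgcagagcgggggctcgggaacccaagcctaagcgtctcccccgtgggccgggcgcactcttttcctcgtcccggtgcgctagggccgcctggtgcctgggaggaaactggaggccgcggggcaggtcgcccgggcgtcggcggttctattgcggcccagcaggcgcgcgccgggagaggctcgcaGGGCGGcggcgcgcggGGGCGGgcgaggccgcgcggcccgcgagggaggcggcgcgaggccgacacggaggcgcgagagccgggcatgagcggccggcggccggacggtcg

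Hoxd8, Hoxd9 and Hoxd11 held GC boxes, Hoxd9 and Hoxd10 both held CCAAT matches, and the PBX-HOX match was in Hoxd11. Promoters were matched for 20 of the 39 rat members. Hoxb1 alone came from cluster B and Hoxc4 alone from cluster C, so the shares below are mainly those of clusters A and D. A PBX-HOX match was present in 4 of the 20 (20%), Hoxa2, Hoxa7, Hoxb1 and Hoxd11, against 9.1% of 33469 rat promoters of the same length. CCAAT was present in 12 (60%) against 37.5%, GGGCGG in 11 (55%) against 33.1%, and TATAAA in 3 (15%) against 14.2%. The retinoic acid response element of type DR5 was in none of the 20 and in 0.00896% of all. Median GC content was 62.5% in members and 51.7% overall. A match is a description of letters in this window and was not tested against the levels.

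Between ovary and female brain, 24 members were tested, 20 were higher, none was lower and 4 were not called, where 27.4% of all genes tested were higher and 29.4% lower. The median was 3.36 over tested members and 0.0040 over all genes. As in pons, a gene could enter through ovary alone. Anterior members were present in both tissues: Hoxb2 was at 5.57 ± 2.11 CPM in ovary (SD, n = 14) against 0.815 ± 0.538 CPM in brain, with a fitted log2 fold change of 2.82, and that of Hoxb3 was 1.60. Hoxa2 at 0.73 (adjusted p = 0.0678) was not called. Hoxd1 was the exception in direction, at 0.0371 CPM in ovary and 0.523 CPM in brain, and did not pass the filter. Without the filter its log2 fold change was -3.75, and it, Hoxc11 and Hoxc13 were called lower, against 31.3% of all genes.

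Central members ranged widely. Hoxc6 was at 8.37 to 16.9 CPM in ovary (median 12.9) against a mean of 0.0947 CPM in brain, a log2 fold change of 6.98 ± 0.18 (adjusted p = 2.45e-25). Hoxc8 was at 1.47 to 6.90 CPM (median 3.12) and had no count in female brain, so it was at least 908.1-fold higher. Hoxb7 was 5.15, Hoxa7 4.63, Hoxb6 3.45 and Hoxc5 3.27 on the log2 scale. Smaller values were 1.97 for Hoxb4, 1.93 for Hoxd4, and 1.24 for Hoxa5. Hoxa4 (0.95), Hoxb8 (0.96) and Hoxb5 (-0.62) were not called.

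Posterior members set ovary most clearly apart from brain. Their sum was 13.7 to 39.2 CPM in ovary and at most 0.127 CPM in female brain. Hoxa9 was at 0.200 to 9.23 CPM (median 2.68) and had no brain count, so it was at least 778.8-fold higher. Hoxa10, which is required in the female genital tract, was at 0.272 to 4.65 CPM (median 1.94), with 2 counts in brain. Hoxb9 was at least 155.5-fold higher, and Hoxc9 (8.06) and Hoxc10 (7.69) were also called. Rat 18 had the highest level of Hoxa9 (9.23 CPM), Hoxa10 (4.65 CPM), Hoxa11 (1.81 CPM), Hoxd10 (3.13 CPM) and Hoxd11 (1.18 CPM), while its oviduct and Mullerian epithelium list, at 40.7 CPM, was the lowest of the 14. Groups 12 and 13 were absent or nearly so: Hoxc12 and Hoxd12 had no count in ovary, Hoxa13 and Hoxd13 had 1 count each, Hoxb13 had 5 and Hoxc13 had 7.

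**Figure D4:**
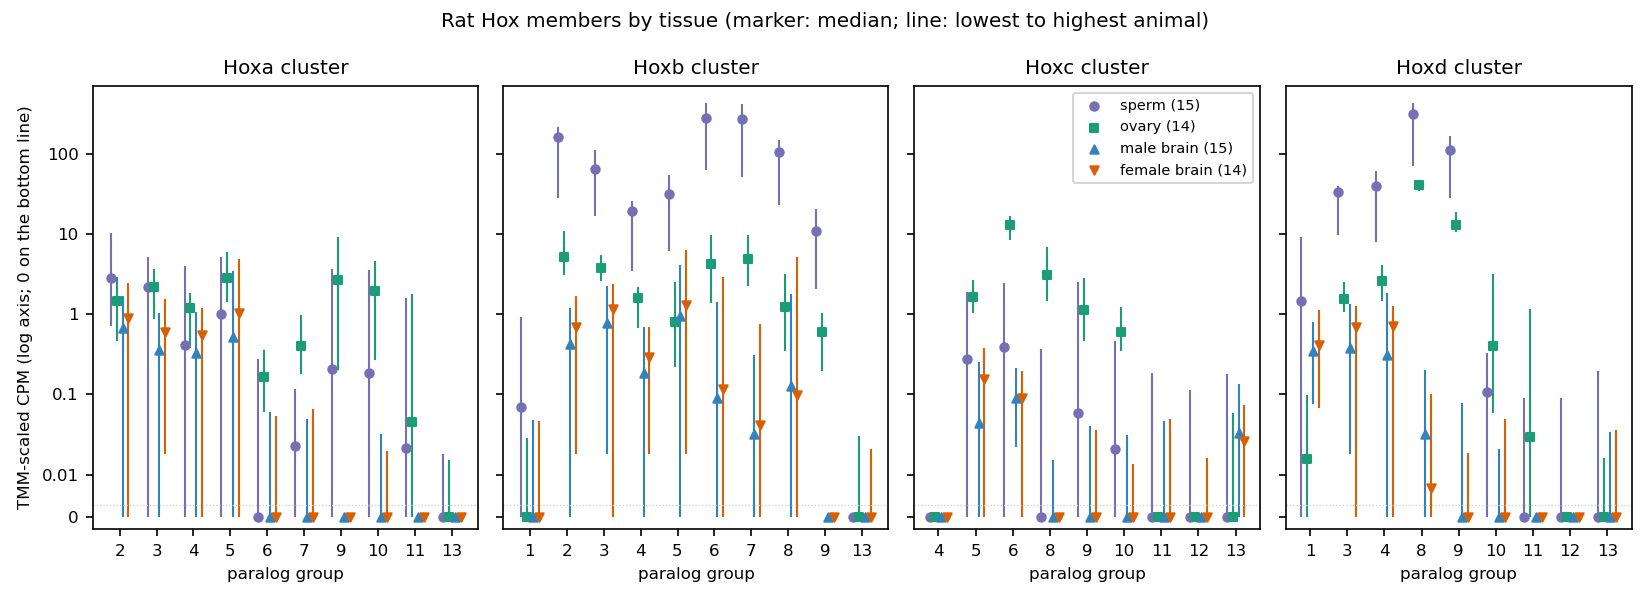
Rat members by cluster and paralog group in brain of each sex, ovary and sperm, in CPM on a log axis; the marker is the median and the line runs from the lowest to the highest animal. Ovary shows members in all 4 clusters up to group 10, and sperm is high over clusters B and D up to group 9.

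Rat sperm libraries showed another pattern, with high levels over clusters B and D. Hoxd8 was at 70.1 to 427 CPM with a median of 310.2 CPM, and Hoxd9 at 28.2 to 166 CPM with a median of 111 CPM. Hoxb7 was at 50.7 to 417 CPM (median 268), Hoxb6 at 62.7 to 427 CPM (median 282) and Hoxb2 at 28.4 to 214 CPM (median 162). No male brain came near these values: the highest were 0.204 CPM for Hoxd8, 0.0781 CPM for Hoxd9, 0.313 CPM for Hoxb7, 1.43 CPM for Hoxb6 and 1.20 CPM for Hoxb2. The log2 fold changes over male brain were 13.26 ± 0.45 for Hoxd9 (adjusted p = 8.61e-22), 12.36 ± 0.43 for Hoxd8, 11.42 ± 0.61 for Hoxb7, 9.44 ± 0.70 for Hoxb6 and 8.05 ± 0.50 for Hoxb2. Hoxb9 had no count in male brain and was at least 3127-fold higher, at 2.09 to 20.7 CPM.

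Of the 39 members, 17 were tested against male brain and 15 were higher, where 26.4% of all genes tested were higher and 32.7% lower. The median was 6.27 over tested members and -0.11 over all genes. A gene could pass the filter through sperm alone. All 8 cluster B and all 5 cluster D members tested were higher, from 2.56 for Hoxd1 upward. Cluster A gave 2 of 4, Hoxa3 at 2.49 and Hoxa2 at 2.26, while Hoxa4 at 0.70 (adjusted p = 0.256) and Hoxa5 at 0.92 (adjusted p = 0.244) were not called. No cluster C member passed the filter. The highest mean in that cluster was 0.717 CPM, for Hoxc6, which 2 of 15 libraries lacked. Without the filter 32 members were called and DESeq2 called 25, with 36.0% and 26.3% of all genes higher under those settings.

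Levels in rat sperm were set beside the marker lists of other cells. Rats 14 and 7 had the lowest Hoxd8, at 70.1 and 144 CPM, and Hoxd9, at 28.2 and 58.7 CPM. They also had the lowest epididymis sums, 1618 and 2009 CPM, and the highest sums of the list for late spermatids and sperm, 28680 and 25630 CPM. Of 17 members, 2 passed with the epididymis list, and 4 passed with the late spermatid and sperm list, 3 of them negative. As in brain, the share of all genes that would pass is not given, and the members share their libraries. With the epididymis list, Hoxb8 and Hoxb9 each had a Spearman rho of 0.761 (n = 15, permutation test, adjusted p = 0.0227 over the 70 relations). Their Pearson r was 0.907 and 0.873, or 0.604 and 0.723 without the 2 farthest libraries. For Hoxd8 and Hoxd9 the rho with that list was 0.439 and 0.382 (permutation adjusted p = 0.168 and 0.244), and neither passed. Their r of 0.851 and 0.766 was 0.207 and 0.0226 without the 2 farthest libraries. With the late spermatid and sperm list, rho was -0.836 for Hoxb7 (permutation adjusted p = 0.0147), -0.714 for Hoxb5 (0.0309) and -0.661 for Hoxd9 (0.0384). Hoxa5, in cluster A, went the other way, at 0.663 (0.0384). In ovary, none of 12 relations with the oviduct and Mullerian or the smooth muscle and fibroblast lists passed. With the oviduct list, r ran from -0.281 (Hoxb9) to 0.368 (Hoxc10), and from -0.326 to 0.722 for the same genes without the 2 farthest libraries. It went from 0.167 to 0.650 for Hoxa9 and from 0.178 to 0.540 for Hoxa10. With the smooth muscle list, r ran from -0.176 to 0.607, and from -0.128 to 0.576 without 2 libraries. What part RNA from other cells of the duct had in the sperm values was not tested.

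Ovary and sperm were compared directly, in animals of different sex, so that sex and organ cannot be told apart. Of 26 members tested, 8 were higher in ovary and 14 in sperm, where 28.2% of all genes tested were higher in ovary and 22.7% in sperm. Of all calls 55.4% were higher in ovary, and 65.5% with plain library totals. The median was -1.94 over tested members, negative meaning higher in sperm, and 0.13 over all genes. By class, anterior members gave 0 higher in ovary and 5 in sperm of 6 tested, central 4 and 7 of 13, and posterior 4 and 2 of 7. By cluster, B gave 0 and 8 of 8, C gave 4 and 0 of 5, A gave 3 and 1 of 7, and D gave 1 and 5 of 6. This comparison shares its libraries with those against brain.

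**Figure D5:**
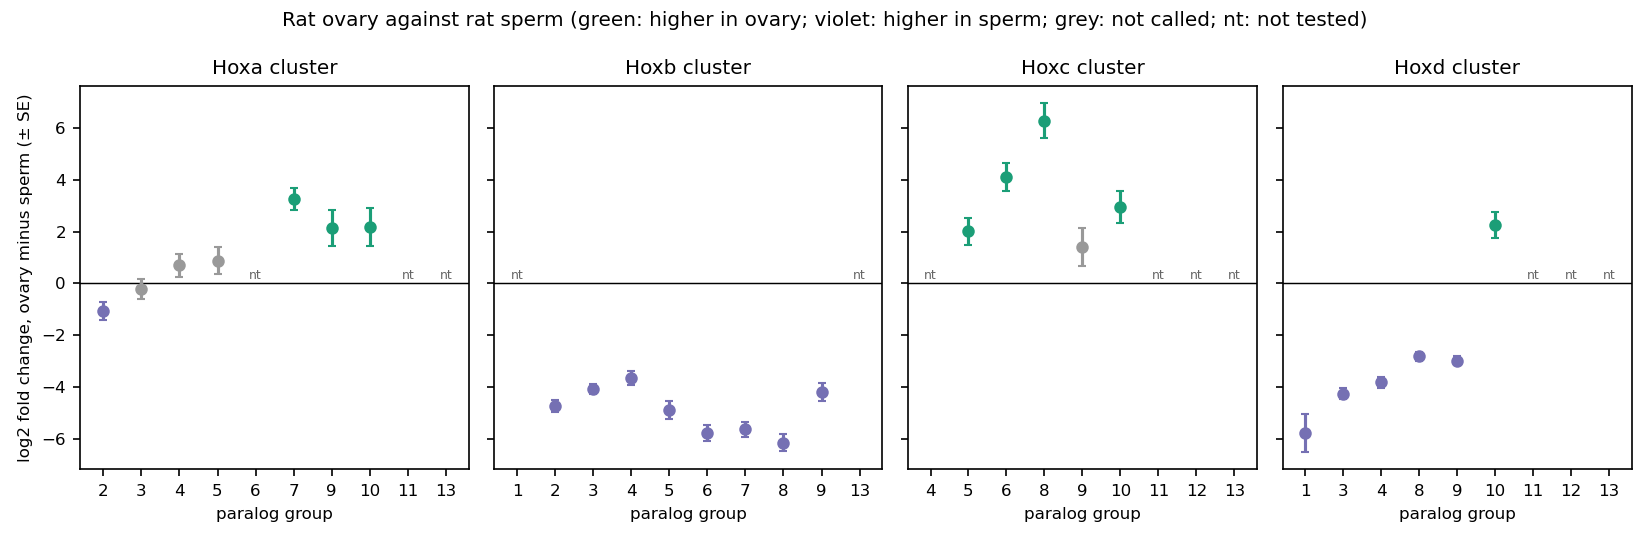
Log2 fold change of ovary over sperm, with its SE, by paralog group in each rat cluster; green is called higher in ovary, violet called higher in sperm, grey not called, and nt not tested. Cluster B lies below 0 throughout, cluster C above 0, and cluster D crosses from -2.99 at Hoxd9 to 2.25 at Hoxd10.

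On the ovary side, Hoxc8 was at 3.51 ± 1.65 CPM (n = 14) against 0.0418 ± 0.0955 CPM in sperm (n = 15), a log2 fold change of 6.28 ± 0.68 (adjusted p = 1.64e-09). Hoxc6 followed at 4.13, Hoxa7 at 3.26, Hoxc10 at 2.94, Hoxd10 at 2.25, Hoxa10 at 2.18, Hoxa9 at 2.14 and Hoxc5 at 2.01. Toward sperm, Hoxb8 was at 1.33 ± 0.741 CPM in ovary and 95.3 ± 38.7 CPM in sperm, a log2 fold change of -6.16 ± 0.34 (adjusted p = 6.40e-16). Every cluster B member tested had a value between -3.66 (Hoxb4) and -6.16. In cluster D the values were -5.79 for Hoxd1, -4.27 for Hoxd3, -3.82 for Hoxd4, -2.82 for Hoxd8 and -2.99 for Hoxd9, and then 2.25 for Hoxd10 (adjusted p = 0.000313). Ovary and sperm ranges of Hoxd10 overlapped, at 0.0582 to 3.13 and 0 to 0.329 CPM. Hoxa2, at -1.06, was no longer called with plain library totals (-0.74, adjusted p = 0.06155) or without the shallow sperm libraries of rats 16 and 17 (-0.85).

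Cofactors and regulators were counted between these tissues as well. Over all genes tested, 27.4% were higher and 29.4% lower in ovary against female brain. For rat sperm against male brain the shares were 26.4% and 32.7%, and for ovary against sperm 28.2% and 22.7%. Against brain, the TALE list had 3 higher and 3 lower of 11 in ovary, near these shares, and 3 and 5 in rat sperm. Meis1 and Meis2, which encode cofactors that bind beside HOX proteins, were lower in sperm: against male brain, the log2 fold change was -7.34 for Meis2, -4.46 for Meis1 and -3.18 for Pknox2, whereas Tgif1, a TALE repressor, was 2.94. In ovary against female brain, Tgif1 was 3.92, Meis1 1.33 and Meis2 -2.05. Directly, 7 of 11 TALE genes were higher in ovary and 1 in sperm, with Meis1 at 5.71, Meis2 at 5.33 and Pbx4 at -2.86. The hindbrain patterning list had 2 higher and 6 lower of 8 tested in rat sperm, with Egr2 (3.30) among the higher. In ovary it had 2 higher and 5 lower of 8. Retinoic acid genes were 8 higher and 6 lower of 18 in ovary, and 11 higher and 4 lower in rat sperm, where Aldh1a1, a retinoic acid synthesis enzyme, was at 3.81. Few Polycomb and Trithorax genes were called, with 4 higher and 3 lower of 22 in ovary and 1 and 3 in rat sperm. ParaHox and other clustered homeobox genes were lower in 5 of 5 tested in both. No gene of these lists was called between male and female brain, where 0.0535% of all genes tested were called.

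Position in the rat genome bears on how reads were assigned. On GRCr8, cluster A spans chr4:82586505-82691701, cluster B chr10:81657074-81830404, cluster C chr7:135937126-136051601 and cluster D chr3:79978077-80075180. Another annotated gene overlaps 12 of the 39 members: Hoxa3, Hoxa4, Hoxa5, Hoxa6, Hoxb3, Hoxb5, Hoxb6, Hoxc4, Hoxc5, Hoxc6, Hoxc11 and Hoxd4. For these, how reads were split is uncertain, since no source used here states whether the counting was by strand or how it treated overlaps. Hoxc4 had no count in any of the 58 rat libraries. Levels in sheep carry the same uncertainty, and coordinates of the sheep genes were not used here.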

How the data were processed

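Gene counts were deposited for 113 libraries. Per the labels' protocols and the submitters' processing notes, RNA was extracted with TRIzol (sheep) or a Zymo kit (rat) and treated with DNase I, poly(A) libraries came from stranded Kapa (sheep) or Watchmaker (rat) kits, and 150-base read pairs were sequenced on a NovaSeq X Plus. The notes name Trimmomatic 0.39, STAR 2.7.5a and Rsubread 2.20.0 with GRCr8 and ARS-UI_Ramb_v3.0. The deposited values are raw counts per gene, and whether the authors counted by strand is not given in the sources used here.

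Groups came from the labels. TMM factors came from all libraries of a species. The quasi-likelihood tests of edgeR 4.0.16 (R 4.3.3) used filterByExpr by group and a prior count of 0.125. Comparisons among sheep brain regions shared a fit without sperm, and sheep sperm was compared in a fit with the brain regions. Each rat comparison had its own fit. The low-count filter was applied within each fit, and Benjamini-Hochberg adjustment covered all genes tested in a comparison. A call needed an adjusted p below 0.05 and a log2 fold change of at least 1. SE was the log2 fold change over the root of F. It uses a single spread per gene over all libraries of a fit, so it does not measure the spread within any particular group. Bounds against a group with no count used 3 counts over that group and the observed mean of the other group, and counting intervals were 95%. Correlations used scipy 1.17.1 and 100000 permutations. The members, lists and tests were chosen with earlier results of these data known. Named members were those with a group mean of at least 1 CPM and those with the largest called changes in each comparison. All columns were mapped to samples. Some genes are counted in totals and are not reported here.

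Same-numbered libraries share an animal. The median correlation of their deviations from group means was 0.0095 for ovary and brain, 0.0707 for rat sperm and brain, and 0.0459 for pons and cerebellum. Fits without the animal as a block were the main ones, so regions of an animal were treated as separate libraries. Alternatives were other scalings, no low-count filter, DESeq2 1.42.0, no fold minimum, each sheep left out, the animal as a block, and, added after the data were seen, leaving out the rat brain libraries rich in ribosomal RNA. Simulated counts with known changes were used to check the fitting. Nothing in the labels gives a batch.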

Additional observations from a re-analysis of the deposited data

Results flagged for a closer look

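Among the 30 sets of 5 sheep values examined, a library stood far from the other 4 in 9. The rate of about 1 in 20 sets marked by chance does not apply to these sets, so the 9 are a description only. Sets entered when their 5 values averaged 1 CPM or more, and 1 high library can itself lift a set over that limit. Every far value was the highest of its set. The sets were also not independent, since the central sum contains single genes given here. Of the 9, 5 were 1 library, the pons of sheep 690. In that library, HOXA5 was 11.6 CPM (next highest 1.87), HOXB4 11.3 CPM (1.4), HOXB5 21.6 CPM (0.904) and HOXD4 11.1 CPM (2.37), and the sum of central members was 76.6 CPM (16.1). In sheep sperm, HOXA9 was 5.99 CPM in sheep 688 (next 1.65), HOXB3 was 14.1 CPM in sheep 687 (3.55) and HOXC5 was 4.22 CPM in sheep 694 (0.988). In motor cortex, the anterior sum of sheep 699 was 3.51 CPM, against at most 1.23 CPM in the other 4 animals.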

How the results depend on the processing

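Counts of members called depended most on the low-count filter and the tool, because many members had few counts. Without the filter the number called was 20 for pons against the other regions, 5 for cerebellum, 17 for pons against cerebellum, 34 for sheep sperm and 32 for rat sperm. DESeq2 gave 11 for pons, 9 for pons against cerebellum, 13 for sheep sperm and 25 for rat sperm. Leaving out each sheep in turn gave 5 to 7 for pons, 3 to 4 for cerebellum, 5 to 7 for pons against cerebellum and 8 to 9 for sheep sperm. With the animal as a replicate block the numbers were 5, 3, 5 and 8 in sheep, 21 in ovary and 15 in rat sperm, so the pairing moved no count by over 1.5 times. Under the block, Hoxb6 was 4.60 and Hoxb7 5.86 in ovary, and Hoxb8 8.67, Hoxb6 10.26 and Hoxb5 5.39 in rat sperm, all still higher. Detection at 1 CPM left 3 members in pons, 0 in cerebellum, 0 in sheep sperm, 0 in male brain, 0 in female brain and 14 in ovary, and TMM-scaled detection gave 9 in sheep sperm. Of 78 member calls, 74 held under every alternative tried. The exceptions were HOXB4 and HOXB2 in sheep sperm, at -0.24 and -0.85 with plain library totals, HOXC5 there, with an adjusted p of 0.1375 in DESeq2, and Hoxa2 between ovary and rat sperm. With plain totals other higher calls in sheep sperm were 5.99 for HOXC5, 3.6 for HOXB3 and 3.33 for HOXA5. Plain totals moved the median of all genes from -0.42 to -2.84 in sheep sperm, from 0.0040 to 0.30 in ovary, and from 0.13 to 0.45 between ovary and rat sperm. Depth limits low members: 3 counts correspond to 0.00323 to 0.0736 CPM over the groups described.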

Other observations

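Other annotated genes inside the rat clusters also differed between ovary and sperm. Some of them overlap members: Hoxb5os overlaps Hoxb5 and Hoxb6, LOC102550580 overlaps Hoxb3, and Hoxa3l1 overlaps Hoxa3 and Hoxa4. How reads were split between these genes and the members is uncertain, so their values may not be separate from those of the members. Hoxb5os, a long noncoding RNA gene in cluster B, was at 24.8 ± 10.1 CPM in sperm (SD, n = 15) and 0.442 ± 0.217 CPM in ovary (n = 14), a log2 fold change of -5.80 ± 0.32 for ovary over sperm in edgeR (adjusted p = 6.75e-16). LOC102550580, also in cluster B, was at 10.4 ± 3.83 CPM in sperm and 0.876 ± 0.252 CPM in ovary. In cluster A, Hotairm1 was at 1.67 ± 0.954 CPM in sperm and 0.267 ± 0.126 CPM in ovary, at -2.63. Hoxa3l1, a protein-coding entry within the span of Hoxa3, was at 5.56 CPM in sperm and 3.8 CPM in ovary, and its -0.55 was not called (adjusted p = 0.078). In cluster C, LOC103692987 was at 0.353 ± 0.0767 CPM in ovary and 0.0298 ± 0.0843 CPM in sperm, at 3.38.

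Some genes outside the clusters had group means that followed the summed class levels closely. Over the 11 sheep groups, the highest Pearson correlations with the anterior sum were those of LHX9 (0.985), TBX20 (0.981) and CPM, the carboxypeptidase M gene (0.979). With the central sum they were those of TBX20 (0.996), MYH14 (0.978) and SPTBN5 (0.976). These are descriptions over 11 means, 10 of them brain regions of the same 5 animals. With the posterior sum, 1141 of 14953 genes reached 0.99, since sperm alone was high. Over the 4 rat groups, 819 to 859 of 16739 genes reached 0.99 for each class, so no gene was singled out.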
